A study of Homo sapiens with 12 samples.

Results

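The proteasome genes of hTERT-RPE1 cells were followed through 3 drug treatments: the 33 subunits of the 20S core and the 19S cap, 4 activators and 1 inhibitor, 8 assembly factors, and NFE2L1, the transcription factor of these genes. The 47 genes were chosen by symbol from 53361 rows of the gene table, and where a symbol had several rows (PSMA1 and PSMA2) the row with the highest mean was taken. hTERT-RPE1 cells come from human retinal pigment epithelium and divide without limit because they carry telomerase. Poly(A) RNA was sequenced in 12 libraries, 3 from each of 4 groups. Cells received 1 µM MG132 for 24 h, or 0.5 µM reversine for 24 h followed by a wash and 48 h of further culture before harvest, or 0.1 µM bafilomycin A1 (BafA1) for 6 h, or nothing (control). For the controls neither a solvent nor a duration is labelled, so drug, solvent and time in culture cannot be told apart. MG132 blocks the proteasome, reversine inhibits the mitotic kinase Mps1 so that chromosomes missegregate, and BafA1 blocks the proton pump of lysosomes.

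The 26S proteasome degrades proteins that carry ubiquitin chains. Its 20S core is a stack of rings of alpha and beta subunits, and 3 of the beta subunits, PSMB5, PSMB6 and PSMB7, cut the substrate inside the chamber. The 19S cap has a base, whose ATPases unfold the substrate and open the core, and a lid, whose PSMD14 removes ubiquitin. Assembly factors hold subunits in place while the particle is built and are not kept in it, except that POMP is degraded inside the new core. NFE2L1 (also called NRF1 or TCF11) sits in the membrane of the endoplasmic reticulum and is itself degraded by the proteasome. When the proteasome is blocked it is cut free, enters the nucleus with a small MAF partner and raises the proteasome genes, a response known in human cell lines as the bounce-back.

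NFE2L1 and its relatives bind antioxidant response elements, whose core is TGACNNNGC. That core was searched on both strands in promoter windows of RefSeq (GRCh38.p14), each of 300 bases with 250 before a gene's start and 50 after it. A window was given for 41 of the 47 genes and none for PSMA7, PSMB1, PSMB6, PSMB7, PSMD4 and PSMG3. At least 1 match lay in the windows of 16 of the 41 genes (39.0%), against 4384 of the 27305 genes in the whole set of promoter windows (16.1%), whether or not they were expressed here. Counted by window, 17 of 53 member windows held a match (32.1%), against 4687 of 35116 windows in all (13.3%). Matches were present in 6 of the 22 genes with a window that were called higher after MG132 and in 10 of the 19 others. No other motif was searched, and the first letters of this core also begin the AP-1 element. Such a match is a description of letters and not a binding site. The first 4 sequences below are those of genes called higher after MG132 whose match lay wholly before the start. The other 3 come from 19S and 20S subunits that were not called, so that both can be compared. The lid subunit SHFM1, also not called, had a match on the opposite strand, 154 bases before the start, which is not shown. Each is read along the gene's strand with 10 bases on either side, and the capitals mark the match. They lie at chr15:78540650-78540678 (PSMA4, plus strand), chr17:39980760-39980788 (PSMD3, plus), chr17:67366724-67366752 (PSMD12, minus), chr2:53971009-53971037 (PSME4, minus), chr17:38752627-38752655 (PSMB3, plus), chr20:62302749-62302777 (ADRM1, plus) and chr17:63827654-63827682 (PSMC5, plus).
PSMA4: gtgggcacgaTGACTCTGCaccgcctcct
PSMD3: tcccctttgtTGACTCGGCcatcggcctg
PSMD12: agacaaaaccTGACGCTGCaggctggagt
PSME4: cccggcggctGCAGCGTCAccagcagagc
PSMB3: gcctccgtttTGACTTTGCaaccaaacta
ADRM1: cgctcccctaTGACACAGCaacaataggg
PSMC5: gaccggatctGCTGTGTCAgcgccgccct
In PSME4 and PSMC5 the core lies on the opposite strand, so its reverse complement is in capitals. The bases between match and start number 28 in PSMD3, 25 in PSME4, 48 in PSMC5, 95 in PSMB3, 117 in PSMA4, 128 in ADRM1 and 156 in PSMD12.

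Values were taken as FPKM, in which fragments are divided by transcript length and by mapped depth. If that unit holds, levels of different genes can be compared per length. Read counts are unknown and no counting interval can be given. The total FPKM of a library ran from 962892 to 2057717. Relative to the deepest library, depth estimated from the lowest values was 0.718 to 0.891 in MG132 libraries, 0.742 to 0.913 in reversine, 0.617 to 0.772 in BafA1 and 0.822 to 1 in control. The dependence on transcript GC content differed within groups. On a scale where 0 is the average library, values fell with GC content in MG132 2 (−0.41 log2 units per 10 percentage points), MG132 3 (−0.43), reversine 1 (−0.31) and BafA1 3 (−0.08), and rose in the other 8 libraries, MG132 1 among them (0.07). The 3 MG132 libraries therefore stand on both sides of this split, and results are also given for MG132 1 apart from MG132 2 and 3. Of 10 markers of retinal pigment epithelium, RPE65 and TTR were under 1 FPKM in all 12 libraries, and the summed level of the list was 49.9 to 52.8 in MG132, 65.1 to 100.1 in reversine, 63.0 to 84.6 in BafA1 and 70.7 to 80.3 FPKM in control libraries. The blood markers CD3E and LYZ were under 1 FPKM throughout. In RNA from whole cultures, fewer cells of a kind and less RNA per cell cannot be told apart. Whether replicate libraries were grown as independent cultures is not labelled, and the p-values therefore reflect the spread among libraries, which may be technical.

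In control libraries the 14 core subunits lay between 57.4 (PSMB2) and 589.7 FPKM (PSMA7) on average, the base between 54.6 (PSMC6) and 759 (PSMD2, a scaffold of the base), and the lid between 48.1 (PSMD12) and 210.3 (PSMD8). The highest core gene of a control library was 9.98 to 10.9 times the lowest, although the particle holds the core subunits in equal number. Activators and inhibitor lay between 9.72 ± 2.44 FPKM for PSME4 and 183 ± 28.5 for PSMF1, and assembly factors from 13.5 ± 1.64 FPKM for PSMD5 to 134 ± 11.4 for PSMD9. NFE2L1 stood at 290.3 ± 34.8 FPKM (SD, n = 3 for each). All 47 genes exceeded 1 FPKM in at least 3 libraries and were tested.

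**Figure D1:**
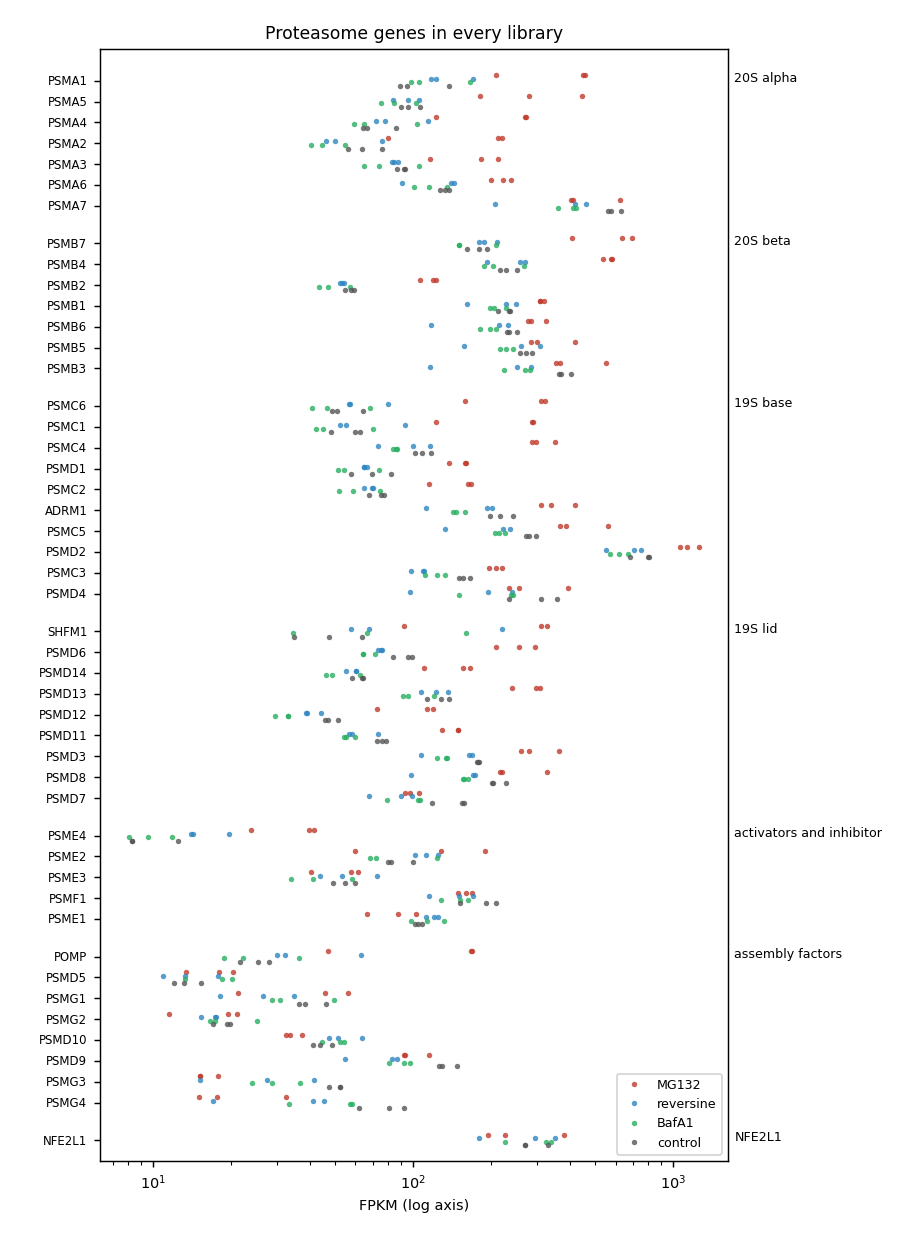
Each point is the FPKM of 1 gene in 1 library (log axis), with genes down the page by class and, within a gene, MG132 at the top, then reversine, BafA1 and control. PSMD2 carries the highest values, up to 1259.7 FPKM in MG132 1, and most 20S and 19S genes have their MG132 points to the right of the other groups.

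After MG132, 21 of the 33 genes of the 20S core and the 19S cap were called higher and none was called lower. Of the 12 that were not called, PSMA7, PSMD4 and PSMD7 had differences below 0. Of all 47 genes 23 were higher, 2 were lower and 22 were not called, where called means a limma p, adjusted over all 30712 rows tested, under 0.05. Over all rows 7.14% were called higher and 7.67% lower. For 29 of the 47 genes all 3 MG132 libraries lay above all 3 controls, and for 5 they lay below, against 20.3% and 13.5% of all rows. The median log2 difference of FPKM + 1 was 0.69 over the 47 genes and 0.99 over the 33 subunits, against 0.04 over all rows. Summed over the 47 genes, MG132 libraries held 10574, 11522 and 10980.5 FPKM, against 6859.8, 6897 and 7058 FPKM in control, a ratio of means of 1.59. All 3 MG132 sums lay above all 3 control sums.

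Summed by class, levels were higher in all 4 parts of the particle and close to control in the genes around it. The ratio of summed FPKM, MG132 over control, was 1.67 for the alpha ring, 1.66 for the beta ring, 1.71 for the base and 1.85 for the lid, but 1.04 for activators and inhibitor and 0.93 for assembly factors. In the lid, sums were 1648, 1926 and 1877 FPKM in MG132 libraries, against 988, 967 and 998 FPKM in control. In the assembly factors they were 296, 407 and 423 FPKM in MG132 libraries and 394, 391 and 433 FPKM in control, and the groups overlapped. No test was made on these sums.

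**Figure D2:**
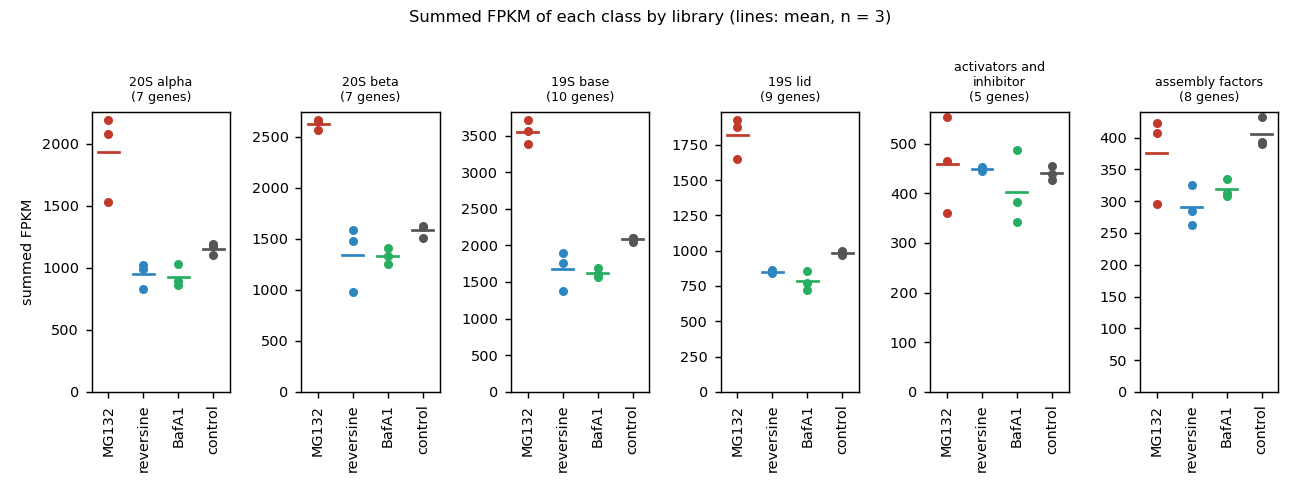
Summed FPKM of the genes of each class (linear axis from 0), with 1 point per library, a bar at the mean and groups from left to right MG132, reversine, BafA1 and control. In the 20S and 19S panels every MG132 point lies above every control point (lid 1648 to 1926 against 967 to 998), while in the 2 panels on the right the MG132 and control points overlap.

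In the beta ring, which holds the catalytic sites, 3 of 7 genes were called higher, and only 1 of the 3 catalytic subunits was among them. PSMB7, the trypsin-like subunit, had 407, 696 and 636 FPKM in MG132 libraries, against 161, 193 and 179 FPKM in control. Its groups were far apart, with a log2 difference of 1.67 ± 0.21 (SE; limma adjusted p 0.000824). PSMB5, the chymotrypsin-like subunit and main target of MG132, had 417, 298 and 283 FPKM in MG132 libraries and 273, 286 and 256 FPKM in control. MG132 1 stood far above the controls and MG132 2 and 3 stood near them, so the groups overlapped and the gene was not called (0.27 ± 0.23, limma adjusted p 0.401). PSMB6, the caspase-like subunit, had 324, 276 and 283 FPKM in MG132 libraries, against 230.4, 234 and 251 FPKM in control. Each MG132 value was the higher one, by too little for a call (0.30 ± 0.22, limma adjusted p 0.362).

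The other called beta subunits, both structural, moved evenly over the libraries. PSMB2 had 106, 123 and 119.5 FPKM in MG132 libraries, against 54.9, 59.3 and 57.96 FPKM in control (1.00 ± 0.12, limma adjusted p 0.000677). PSMB4 had 537, 583 and 577 FPKM in MG132 libraries, against 216, 249.8 and 228 FPKM in control (1.29 ± 0.16, limma adjusted p 0.000822). In both genes the 3 MG132 values were close to one another and about double the controls or more, with ratios of means of 2.02 and 2.45. The lowest difference of the ring belonged to PSMB3, with 549, 366 and 353 FPKM in MG132 libraries and 362, 370.4 and 403 FPKM in control (0.13 ± 0.31, limma adjusted p 0.795). Only MG132 1 lay above the controls. PSMB1, another structural subunit, was not called either (0.45 ± 0.15, limma adjusted p 0.0709), with 307, 318 and 308 FPKM in MG132 libraries, all above the control values of 212, 235 and 236 FPKM. With median-ratio scaling the signs of PSMB3 and PSMB5 turned (−0.15 and −0.01), and neither was called.

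Of the 7 alpha subunits, which form the outer rings and the gate of the core, 5 were called higher. PSMA1 had the highest difference, with 209, 448 and 458 FPKM in MG132 libraries, against 89.3, 138 and 94.4 FPKM in control (1.72 ± 0.34, limma adjusted p 0.00903). All MG132 values were higher, and MG132 2 and 3 were more than double MG132 1. PSMA3, PSMA4, PSMA5 and PSMA6 were called with log2 differences of 0.86, 1.52, 1.53 and 0.72 (limma adjusted p 0.00638 to 0.0348). PSMA2 was not called (1.24 ± 0.37, limma adjusted p 0.0527), although its MG132 values of 79.96, 211 and 219.6 FPKM were all above the control values of 63.8, 56.1 and 75.9 FPKM. PSMA7, the most abundant core subunit in control cells, had 623, 413 and 404 FPKM in MG132 libraries and 578, 559.7 and 631 FPKM in control. Here MG132 2 and 3 lay below all controls and MG132 1 within them (−0.32 ± 0.28, limma adjusted p 0.401). Some calls of this ring rested on single libraries. PSMA4 was lost without MG132 2 (limma adjusted p 0.0783), MG132 3 (0.0779), control 1 (0.0702) or control 3 (0.065), with 0.00122 to 0.105 over all alternatives. PSMA6 was lost without any 1 of MG132 2 or 3 or the 3 controls (0.0649 to 0.108; over all alternatives 0.00346 to 0.116). PSMA3 was kept in 8 of 21 alternatives and was lost also without MG132 2 (0.135), MG132 3 (0.144), control 1 (0.102), control 2 (0.0769), control 3 (0.0822), BafA1 1 (0.0534), reversine 2 (0.0546) or reversine 3 (0.052), and the alternatives spanned 0.00173 to 0.197.

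In the base 7 of 10 genes were called higher, 5 of them among its 6 ATPases. PSMC6 had the highest log2 difference of all 47 genes, with 158, 320.4 and 309 FPKM in MG132 libraries, against 48.8, 64.1 and 50.9 FPKM in control. Even MG132 1 held more than double the highest control (2.19 ± 0.30, limma adjusted p 0.00142). PSMC4 had 351, 296 and 287 FPKM in MG132 libraries, against 101, 108 and 117 FPKM in control (1.51 ± 0.16, limma adjusted p 0.000346). Unlike in PSMC6, MG132 1 was the highest of the 3. PSMC1, PSMC2 and PSMC3 were also called (log2 differences 1.91, 0.99 and 0.40, limma adjusted p 0.00524 to 0.021), and PSMC5 was not (0.60 ± 0.22, limma adjusted p 0.0938). PSMC3 was lost without any 1 of MG132 2 or 3 or the 3 controls (limma adjusted p 0.0638 to 0.119) and under median-ratio scaling (0.554), and the alternatives spanned 0.00789 to 0.554. Among 28 rows named as pseudogenes of 10 members, 23 stayed under 2 FPKM and 5 did not. PSMC1P5 was at 259, 0 and 0 FPKM in MG132 libraries and at 96.2, 189 and 909 FPKM in control. PSMC1P1 reached 17.04 FPKM in reversine 1, PSMA6P3 72.86 in control 3, and SHFM1P1 39.25 and PSME2P2 64.34 in MG132 3. The values of PSMC1, PSMA6, SHFM1 and PSME2 are therefore uncertain to the extent that reads were divided between near-identical copies.

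The base also holds scaffolds and ubiquitin receptors. The scaffold PSMD1 had 137, 160.1 and 159 FPKM in MG132 libraries, against 82.5, 69.8 and 57.8 FPKM in control (1.12 ± 0.17, limma adjusted p 0.00231). The other scaffold, PSMD2, rose by 0.60 on the log2 scale (limma adjusted p 0.0134), a call lost without control 3 (0.0581) and under median-ratio scaling (0.328), and the alternatives spanned 0.000959 to 0.328. Neither ubiquitin receptor was called. ADRM1 had 418, 338 and 309 FPKM in MG132 libraries, against 216, 198 and 242 FPKM in control, all higher (0.69 ± 0.21, limma adjusted p 0.0603). PSMD4 had 394, 255 and 233 FPKM in MG132 libraries and 311, 234 and 358 FPKM in control, with full overlap (−0.05 ± 0.36, limma adjusted p 0.987).

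In the lid 6 of 9 genes were called higher. PSMD6, a scaffold subunit, had the smallest adjusted p of the 47 genes, with 208, 294 and 256 FPKM in MG132 libraries, against 98.95, 83.5 and 95.2 FPKM in control (1.43 ± 0.13, limma adjusted p 0.000157). PSMD14, the ubiquitin-removing enzyme of the lid, had 109.9, 155 and 166 FPKM in MG132 libraries, against 58.4, 64.4 and 63.7 FPKM in control (1.17 ± 0.17, limma adjusted p 0.00202). Its structural partner PSMD7 behaved otherwise, with 106, 92.8 and 97.6 FPKM in MG132 libraries, against 157, 118 and 154 FPKM in control. All 3 MG132 values of PSMD7 lay below all controls, and the gene was not called (−0.52 ± 0.18, limma adjusted p 0.0786).

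Further scaffold subunits of the lid moved with PSMD6. PSMD13 had 240.1, 296 and 306 FPKM in MG132 libraries, against 127, 138 and 114 FPKM in control (1.14 ± 0.15, limma adjusted p 0.0011). PSMD11 had 129, 148 and 148 FPKM in MG132 libraries, against 72.6, 76.1 and 78.8 FPKM in control (0.90 ± 0.12, limma adjusted p 0.00129). In both the MG132 libraries were close to one another and all above the controls. PSMD12 (1.03, limma adjusted p 0.00524) and PSMD3 (0.74, 0.0235) were called too, and PSMD8 was not (0.25, 0.408). PSMD3 was lost without MG132 2 (limma adjusted p 0.0641), control 1 (0.0785), control 2 (0.0695) or control 3 (0.0748), and the alternatives spanned 0.000267 to 0.206. SHFM1, which encodes the small acidic lid subunit also named SEM1, had 91.99, 328 and 309.8 FPKM in MG132 libraries, against 47.5, 63.7 and 34.96 FPKM in control. Its MG132 values were all higher but spread more than 3-fold among themselves, and it was not called (2.13 ± 0.72, limma adjusted p 0.0751).

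Outside the 20S and 19S particles PSME4 and POMP were called higher, and PSMG3 and PSMG4 lower. Over all rows 7.14% were called higher and 7.67% lower. PSME4, the activator PA200, had 23.8, 39.9 and 41.6 FPKM in MG132 libraries, against 8.33, 12.5 and 8.29 FPKM in control (1.74 ± 0.28, limma adjusted p 0.00312). It was the only called gene of its class of 5. PSME1, a subunit of the interferon-inducible activator PA28, had the lowest difference of the class, with 66.7, 103 and 87.6 FPKM in MG132 libraries and 105, 101 and 108 FPKM in control (−0.31 ± 0.16, limma adjusted p 0.183). Its partner PSME2, the nuclear activator PSME3 and the inhibitor PSMF1 had log2 differences of 0.38, −0.06 and −0.19 and were not called.

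Of the 8 assembly factors, 1 was called higher and 2 lower, against 7.14% and 7.67% of all rows. POMP, which brings beta subunits onto the alpha ring and is the first substrate of the finished core, had 47.2, 167 and 169 FPKM in MG132 libraries, against 21.5, 28.04 and 25.4 FPKM in control. MG132 2 and 3 were above 6 times the control mean and MG132 1 under 2 times (2.10 ± 0.50, limma adjusted p 0.0219). The call was lost without MG132 2 (0.0927), MG132 3 (0.0923), control 1 (0.0813), control 2 (0.0545) or control 3 (0.0666), and the alternatives spanned 0.00122 to 0.0927. PSMG3 and PSMG4, which act as a pair in building the alpha ring, went the other way. PSMG3 had 17.9, 15.1 and 15.1 FPKM in MG132 libraries, against 52.3, 47.7 and 52.5 FPKM in control (−1.61 ± 0.31, limma adjusted p 0.00869), and was called under all 21 alternatives. PSMG4 had 32.6, 17.6 and 15.1 FPKM in MG132 libraries, against 80.6, 61.8 and 92.3 FPKM in control (−1.86 ± 0.42, limma adjusted p 0.0172). All MG132 values of both genes lay below all controls. The PSMG4 call was lost without MG132 2 (0.0717), MG132 3 (0.0758), control 1 (0.0639) or control 3 (0.0688), and the alternatives spanned 0.00372 to 0.0758. The other chaperone pair of the alpha ring, PSMG1 (−0.08) and PSMG2 (−0.14), and the chaperones of the base, PSMD5 (0.32), PSMD9 (−0.43) and PSMD10 (−0.36), were not called (limma adjusted p 0.105 to 0.951).

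The NFE2L1 transcript was not called in any group. It had 380.1, 226 and 194 FPKM in MG132 libraries, 179, 350.1 and 294 FPKM after reversine, 339, 323 and 226 FPKM after BafA1 and 331, 270.0 and 270.3 FPKM in control. MG132 1 was the highest of the 12 libraries, MG132 2 and 3 lay below the controls, and all groups overlapped. No difference from control was called: −0.18 ± 0.31 after MG132 (limma adjusted p 0.693), −0.13 ± 0.31 after reversine (0.821) and 0.01 ± 0.31 after BafA1 (0.996). The sign after MG132 was positive in MG132 1 alone (0.39), with the GC and length correction (0.16) and with the batch term (0.32). Cleavage and nuclear entry of the protein are not measured by RNA.

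**Figure D3:**
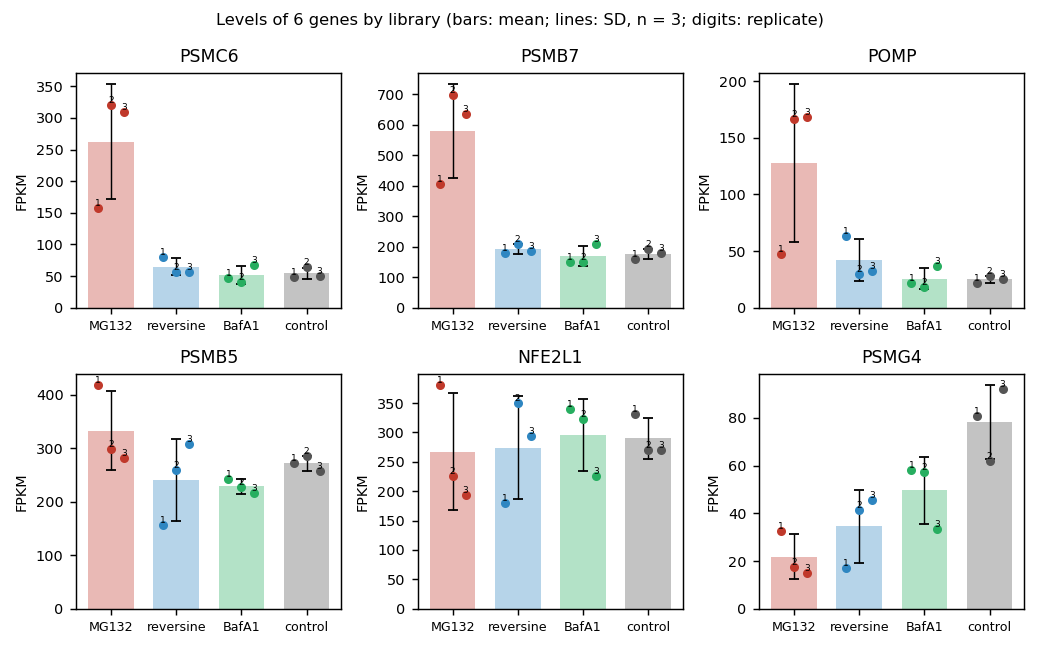
FPKM (linear axis from 0) of 6 genes in every library, with bars for the mean, lines for the SD (n = 3), digits for the replicate, and groups from left to right MG132, reversine, BafA1 and control. PSMC6, PSMB7 and POMP have all MG132 points above every control, PSMG4 has them below (15.1 to 32.6 against 61.8 to 92.3 FPKM), and in PSMB5 and NFE2L1 the groups overlap.

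The size of the rise was not the same in the 3 MG132 libraries. In MG132 1, 31 of the 33 subunits lay above all controls, against 28 in MG132 2 and 27 in MG132 3. The ratio to the control mean was 1.89 in MG132 1 and 6.70 in MG132 2 and 3 together for POMP, 2.90 and 5.76 for PSMC6, and 1.22 and 3.30 for PSMA2. It ran the other way for PSMC4 (3.22 in MG132 1 and 2.68 in the other two), PSMD3 (2.04 and 1.52), PSMC5 (1.99 and 1.33) and PSMB5 (1.54 and 1.07). Across the 46 genes with a known GC content, Pearson's r between GC content and the log2 ratio to control was −0.26 in MG132 1, −0.60 in MG132 2 and −0.64 in MG132 3. In the other 2 libraries with a falling trend it was −0.65 (reversine 1) and −0.53 (BafA1 3). In the remaining libraries it ran from −0.41 (control 2) to 0.37 (control 1), with −0.34 and −0.27 in reversine 2 and 3 and −0.22 and −0.03 in BafA1 1 and 2. The 12 subunits that were not called had a median GC content of 51.9% and a median control level of 233 FPKM, against 44.1% and 90.5 FPKM in the 23 genes called higher. Without the 4 libraries with a falling trend, which leaves MG132 1 as the sole MG132 library and assumes that it varies as the other groups do, 19 genes were called higher and 2 lower, against 3.13% and 5.26% of all rows. Of these 19 genes 14 were among the 23 above, and the other 5 were ADRM1, PSMB3, PSMB5, PSMC5 and PSMD8, while of the 2 lower genes PSMG3 was shared and PSME1 was not. With a batch term for these libraries 25 were higher, 22 of them shared, and 2 lower, against 7.31% and 8.23% of rows. With a correction of each library for GC content and length 26 were higher, 22 of them shared, and 2 lower, against 15.1% and 9.22% of the 25349 rows that could be corrected. Median-ratio scaling gave 18 higher, all of them shared, and 4 lower, against 3.69% and 9.42% of rows. Of the 25 calls after MG132, 11 held under all 21 alternatives: PSMB2, PSMB4, PSMB7, PSMC1, PSMC4, PSMC6, PSMD6, PSMD11, PSMD13 and PSMD14 as higher and PSMG3 as lower.

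**Figure D4:**
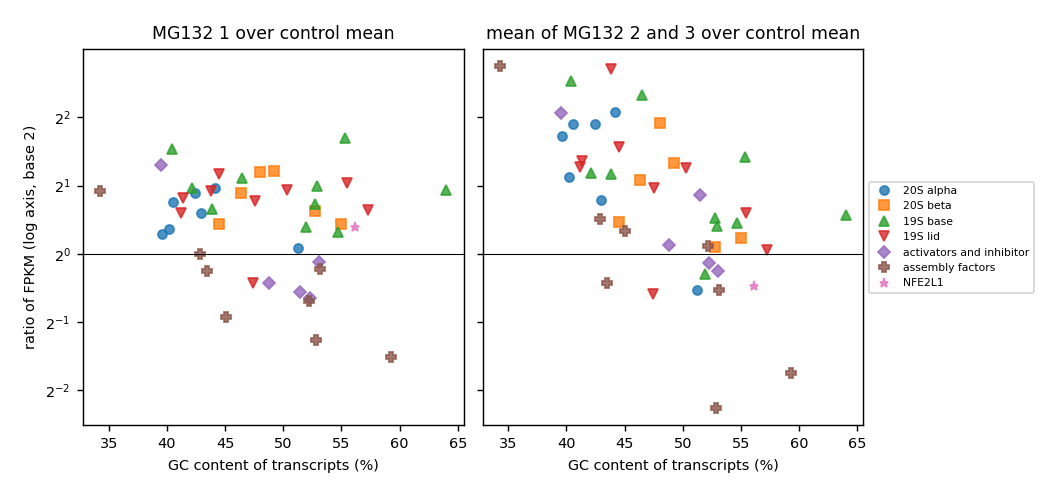
Ratio of FPKM to the control mean (log axis, base 2) against transcript GC content (%) for the 46 genes with a value, in MG132 1 (left) and as the mean of MG132 2 and 3 (right), with 1 marker shape per class. The points fall with GC content on the right (r of −0.60 and −0.64 in the 2 libraries) and less on the left (−0.26), and most 20S and 19S genes lie above the line at 1 in both panels.

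The levels of the core subunits were closer to one another in MG132 libraries than in control. The coefficient of variation over the 14 core genes was 61.1%, 45.9% and 43.3% in MG132 libraries, against 78.1%, 69.6% and 79.3% in control. All 3 MG132 values were below all controls. It was 37.4% in reversine 1, 59.4% and 64.6% in reversine 2 and 3, and 67.7%, 68.9% and 49.7% in BafA1 libraries. The 4 lowest of the 12 values belong to the 4 libraries with a falling GC trend, and the part of that trend was not tested.

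After reversine the proteasome genes were near their control levels, with a tilt downward. None of 47 was called higher and 2 were lower, against 0.801% and 1.29% of all rows. All 3 reversine libraries lay above all controls for 4 genes and below them for 14, against 9.97% and 10.1% of rows. The median log2 difference was −0.13, with 14 genes above 0 and 33 below, against 0.09 over all rows. Summed over the 47 genes, reversine libraries held 4926, 6152 and 6434 FPKM, against 6859.8, 6897 and 7058 FPKM in control. At an unadjusted p under 0.05 there were 13 of the 47 genes, against 11.8% of all rows.

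The ratios of means, reversine over control, were 0.68 and 0.56 for the called genes PSMC3 and PSMD9. PSMC3, an ATPase of the base, had 109, 98.5 and 110.1 FPKM after reversine, against 149.7, 156 and 165 FPKM in control (−0.56 ± 0.10, limma adjusted p 0.0165). PSMD9, a chaperone of the base, had 54.9, 82.6 and 86.8 FPKM after reversine, against 129.5, 126 and 147 FPKM in control (−0.86 ± 0.18, limma adjusted p 0.0468). Neither gene's groups overlapped. Of the 21 alternatives 12 kept PSMC3, which was lost without reversine 2 (limma adjusted p 0.0722), MG132 3 (0.0536) or any 1 of the controls (0.068, 0.0662 and 0.134), and the alternatives spanned 0.00109 to 0.2. PSMD9 was called in 6 of 21 alternatives and was lost without any 1 of the 3 controls (0.109 to 0.226), the 3 reversine libraries (0.052 to 0.0863), the 3 BafA1 libraries (0.0733 to 0.0748) or MG132 2 or 3 (0.0897 and 0.0906), and the alternatives spanned 0.0055 to 0.285.

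The genes at the ends of each class after reversine were the following, none of them called. In the alpha ring PSMA1 was highest (0.35 ± 0.34), with 169, 122 and 117 FPKM after reversine and 89.3, 138 and 94.4 FPKM in control. PSMA7 was lowest (−0.78 ± 0.28), with 207, 418 and 463 FPKM after reversine, against 578, 559.7 and 631 FPKM in control. All 3 reversine values of PSMA7 lay below the controls, reversine 1 far below. In the beta ring PSMB7 was highest (0.12 ± 0.21), with 179, 209.9 and 187 FPKM after reversine. PSMB3 was lowest (−0.90 ± 0.31), with 117, 251 and 285 FPKM after reversine, against 362, 370.4 and 403 FPKM in control, again with reversine 1 lowest. The other catalytic subunits had 157, 259 and 307 FPKM (PSMB5, −0.23 ± 0.23) and 117, 213 and 231 FPKM (PSMB6, −0.41 ± 0.22) after reversine. In the base PSMC6 was highest (0.23 ± 0.30), with 80.03, 56.98 and 56.7 FPKM after reversine. PSMD4 was lowest (−0.83 ± 0.36), with 97.7, 195 and 239 FPKM after reversine.

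The same held in the remaining classes. In the lid SHFM1 was highest (0.99 ± 0.72), with 219.7, 67.5 and 57.6 FPKM after reversine, against 47.5, 63.7 and 34.96 FPKM in control, a difference carried by reversine 1. PSMD7 was lowest (−0.74 ± 0.18, limma adjusted p 0.0817), with 67.97, 89.6 and 98.8 FPKM after reversine, all below the controls. Among activators PSME4 was highest (0.67 ± 0.28), with 19.6, 14.3 and 14.03 FPKM after reversine, against 8.33, 12.5 and 8.29 FPKM in control, all above the controls. PSMF1 was lowest (−0.34 ± 0.17), with 115, 149.8 and 169 FPKM after reversine. Among assembly factors POMP was highest (0.65 ± 0.50), with 63.1, 30.02 and 32.3 FPKM after reversine, against 21.5, 28.04 and 25.4 FPKM in control. All of its reversine values lay above the controls, and reversine 1 was about double the others. PSMG4 was lowest (−1.25 ± 0.42), with 17.1, 41.3 and 45.5 FPKM after reversine, against 80.6, 61.8 and 92.3 FPKM in control, all lower.

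**Figure D5:**
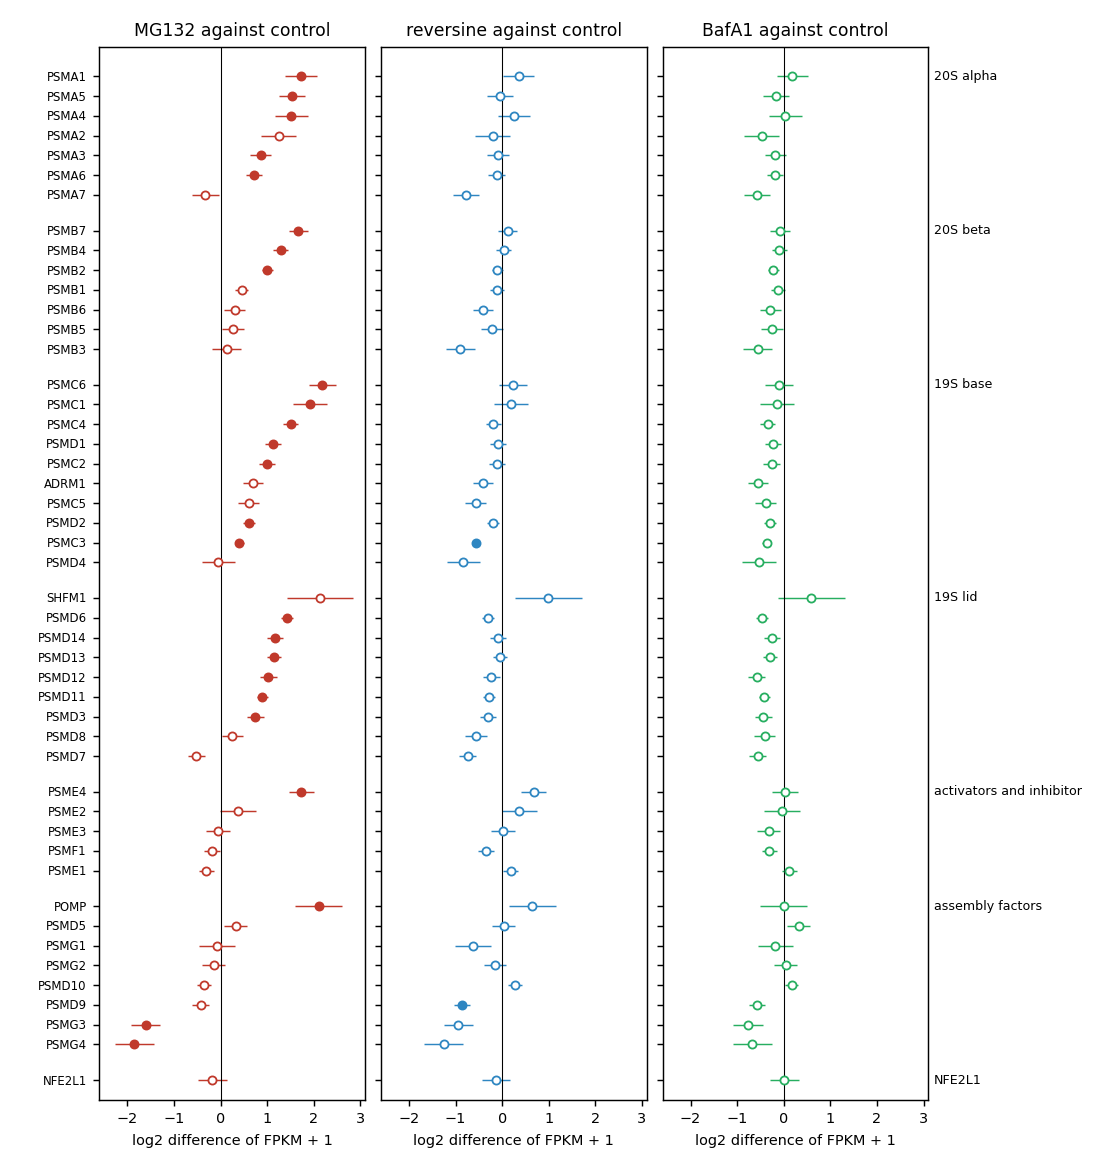
Log2 differences of FPKM + 1 from control with their SE (lines, limma) for all 47 genes down the page by class, with 1 panel each for MG132, reversine and BafA1, and filled points for genes called at an adjusted p under 0.05. The MG132 panel has 25 filled points, the reversine panel 2 (PSMC3 and PSMD9) and the BafA1 panel none, and the BafA1 points lie to the left of 0 in 38 of 47 genes.

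After BafA1 no gene of the 47 was called in either direction, against 0.202% of all rows called higher and 0.0619% called lower. At an unadjusted limma p under 0.05 there were 10 of the 47 genes, against 7.12% of all rows. The differences were small and mostly on one side: 38 of the 47 were below 0, with a median of −0.25, against 0.14 over all rows. No gene had all BafA1 libraries above all controls and 19 had them below, against 15.7% and 7.42% of rows. Summed over the 47 genes, BafA1 libraries held 5716, 5426 and 5909 FPKM, against 6859.8, 6897 and 7058 FPKM in control, and all sums were lower. With limma's array quality weights, which did not converge fully, 8 genes were called lower, against 1.67% of all rows, and with the batch term 2 were, against 0.453%.

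The range of differences after BafA1 can be given by class. In the alpha ring it ran from −0.57 (PSMA7, with 422, 411 and 361 FPKM after BafA1, all below the controls) to 0.19 (PSMA1, 106, 98.4 and 166 FPKM). In the beta ring it ran from −0.56 (PSMB3, 280.2, 269 and 222 FPKM, all below the controls) to −0.08 (PSMB7, 150.3, 149.8 and 208 FPKM). PSMB5 had 243, 227 and 215 FPKM and PSMB6 198, 180.4 and 208 FPKM after BafA1, both all below the controls. In the base it ran from −0.55 (ADRM1, 158, 146 and 142 FPKM, all below the controls) to −0.09 (PSMC6, 46.6, 41.03 and 68.03 FPKM). In each of these genes except PSMA1, PSMB7 and PSMC6 the BafA1 libraries were all lower. In the lid it ran from −0.58 (PSMD12, with 33.02, 29.5 and 32.9 FPKM after BafA1, against 47.2, 45.9 and 51.2 FPKM in control) to 0.59 (SHFM1, 66.4, 34.4 and 159.7 FPKM). Among activators it ran from −0.33 (PSME3, 41.3, 33.9 and 57.99 FPKM) to 0.11 (PSME1, 113, 98.2 and 131 FPKM). SHFM1 and both activators overlapped their controls. Among assembly factors it ran from −0.76 (PSMG3, with 28.8, 36.9 and 24.1 FPKM after BafA1, against 52.3, 47.7 and 52.5 FPKM in control) to 0.33 (PSMD5, with 18.4, 13.3 and 20.2 FPKM after BafA1, against 13.1, 12.03 and 15.3 FPKM in control). POMP had 22.3, 18.7 and 36.5 FPKM after BafA1, around the control values. The smallest adjusted p of the 47 genes was 0.307, for PSMC3 (limma, −0.36 ± 0.10).

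The treatments were also compared with one another, at their own doses and times, which differ. Against reversine, 22 of 47 genes were called higher after MG132 and 1 was called lower, where the shares of all rows were 2.99% and 3.52%. Against BafA1, 27 genes were called higher after MG132 and 1 was called lower, where the shares of all rows were 4.49% and 6.37%. Every one of the 33 subunits had a difference above 0 in both comparisons, with medians of 1.14 over reversine and 1.25 over BafA1. PSMD6 had the smallest adjusted p in both (1.73 ± 0.13 over reversine, limma adjusted p 0.000109, and 1.90 ± 0.13 over BafA1, 4.26e-05). The gene that was called lower in both was PSMD10 (gankyrin), a chaperone of the base. PSMD10 had 37.4, 32.5 and 33.5 FPKM after MG132, 47.5, 51.6 and 63.7 FPKM after reversine, 52.5, 44.5 and 54.04 FPKM after BafA1 and 41.1, 48.8 and 43.9 FPKM in control. Its differences were −0.63 ± 0.15 over reversine (limma adjusted p 0.034, and the alternatives spanned 0.01 to 0.307) and −0.53 ± 0.15 over BafA1 (0.0488, and the alternatives spanned 0.016 to 0.623). The first was lost without MG132 2 or 3 (0.171 and 0.154), reversine 2 or 3 (0.0912 and 0.109), control 1 or 3 (0.06 and 0.0766) or BafA1 1 (0.0555). The second was lost without any 1 of the 3 BafA1 libraries (0.0582 to 0.155), MG132 2 or 3 (0.212 and 0.187), the 3 controls (0.0627 to 0.0769) or reversine 2 (0.0727). A fit of MG132 and reversine alone gave 6 genes higher and none lower, against 0.332% and 0.501% of all rows. With the 4 falling-trend libraries left out 14 were higher, against 1.03% of rows. Median-ratio scaling moved the median of all rows from 0.01 to −0.24 over reversine, where 15 members were then higher and 2 lower, against 1.37% and 5.03% of rows, and from −0.05 to −0.20 over BafA1. Between reversine and BafA1 no gene was called either way, against 0.443% of rows called higher and 0.785% called lower, and 1 gene, PSME4 (0.65 ± 0.28, limma adjusted p 0.623), had an unadjusted p under 0.05. With array quality weights 4 were higher, against 3.74% of rows.

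Other genes of the pathway were taken from lists. Over all rows 0.801% were called higher and 1.29% lower after reversine, and 0.202% and 0.0619% after BafA1. The subunits that replace the catalytic ones in the immunoproteasome, which interferon raises, fell after MG132. Here 3 of 3 tested were called lower, against 7.67% of all rows. PSMB11 and PSMA8, of the thymus and testis forms, were not tested. PSMB10 had 11.4, 11.3 and 11.9 FPKM in MG132 libraries, against 39.9, 40.9 and 40.7 FPKM in control (−1.73, limma adjusted p 0.000231). PSMB8 had 6.29, 4.48 and 4.48 FPKM in MG132 libraries, against 32.2, 25.5 and 27.8 FPKM in control (−2.29, 0.00135 with limma). PSMB9 had 2.17, 2.05 and 2.35 FPKM in MG132 libraries, against 6.20, 6.52 and 7.11 FPKM in control (−1.25, limma adjusted p 0.0142). The PSMB9 call was lost without control 2 (0.0511), and the alternatives spanned 0.00287 to 0.0681. All MG132 values of these genes lay below all controls. Of their constitutive counterparts, PSMB7 was called higher, and PSMB5 and PSMB6 had differences above 0 that were not called.

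Of 16 proteins that bind the proteasome or carry substrates to it, 8 were higher after MG132, 3 lower and 5 not called. Over all rows 7.14% were called higher and 7.67% lower. ZFAND2A (AIRAP), an arsenite-inducible protein of the 19S cap, had 149.5, 177 and 169 FPKM in MG132 libraries, against 29.9, 23.8 and 32.5 FPKM in control (2.49, limma adjusted p 4.71e-05). The scaffold KIAA0368 (ECPAS) had 47.4, 95.4 and 89.3 FPKM in MG132 libraries, against 19.8, 24.5 and 17.99 FPKM in control (1.79, limma adjusted p 0.00191). In both genes the groups stood apart. The shuttle factor UBQLN1 had 92.7, 139 and 138 FPKM in MG132 libraries, against 45.4, 39.9 and 40.4 FPKM in control (1.51, limma adjusted p 0.00312). USP14, a ubiquitin-removing enzyme on the cap, had 158, 151 and 139 FPKM in MG132 libraries, against 92.9, 86.3 and 97.04 FPKM in control (0.69, limma adjusted p 0.00495). ZFAND5 (1.72), TXNL1 (1.80), AKIRIN1 (0.81) and AKIRIN2 (0.63), which takes proteasomes into the nucleus, were also higher. RAD23B (−0.49) and UBQLN4 (−1.17), both shuttle factors, were among the lower ones. Calls that rested on single libraries were AKIRIN1 (lost without MG132 2, MG132 3 or control 3, limma adjusted p 0.0556 to 0.0649; alternatives 0.00297 to 0.188) and TXNL1 (lost without MG132 2, MG132 3 or any control, 0.0534 to 0.0833; alternatives 0.00127 to 0.0833). The USP14 call was ended by median-ratio scaling (0.139), the exception among its 21 alternatives (0.000266 to 0.139). AKIRIN2, RAD23B and UBQLN4 held in 7, 6 and 8 of 21 alternatives, and leaving out MG132 2, MG132 3 or any 1 control ended each of them (0.0821 to 0.186 for AKIRIN2, 0.0707 to 0.187 for RAD23B and 0.0506 to 0.16 for UBQLN4). So did leaving out BafA1 1 or 2 or reversine 2 or 3 (0.05 to 0.0713), and for AKIRIN2 and RAD23B also BafA1 3 (0.0557 and 0.0522). After reversine 1 of the 16 was called, USP14, which was lower, against 1.29% of all rows called lower. USP14 had 52.4, 62.1 and 60.4 FPKM after reversine, against 92.9, 86.3 and 97.04 FPKM in control (−0.65, limma adjusted p 0.0249, and the alternatives spanned 0.00266 to 0.225, called in 9 of 21 alternatives and in none that left out a reversine or control library or MG132 2 or 3, 0.0559 to 0.171).

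Of 14 partners and regulators of NFE2L1, 6 were higher after MG132 and 1 lower, against 7.14% and 7.67% of all rows. The small MAF partner MAFG had 82.7, 83.5 and 74.9 FPKM in MG132 libraries, against 16.8, 16.3 and 19.7 FPKM in control (2.13, limma adjusted p 2.2e-05). UFD1L, which works with the VCP segregase that pulls NFE2L1 out of the membrane, had 365, 390.2 and 311 FPKM in MG132 libraries, against 135, 144 and 159 FPKM in control (1.28, limma adjusted p 0.00241). Another small MAF gene, MAFF, had 53.1, 47.7 and 41.9 FPKM in MG132 libraries, against 21.2, 16.8 and 17.99 FPKM in control (1.30, limma adjusted p 0.00284). Every MG132 value of the 3 genes was above every control. NGLY1, which removes sugar chains from NFE2L1, had 24.5, 38.2 and 36.8 FPKM in MG132 libraries, against 11.9, 14.97 and 12.5 FPKM in control (1.26, limma adjusted p 0.00355). SEL1L, of the ubiquitin ligase complex in that membrane, had 51.5, 55.2 and 42.97 FPKM in MG132 libraries, against 19.1, 18.04 and 22.01 FPKM in control (1.29, limma adjusted p 0.00567). NPLOC4, the partner of UFD1L, was higher too (0.86, lost without MG132 3, limma adjusted p 0.0524, or control 2, 0.0564, and with alternatives from 0.00055 to 0.118), and the related factor NFE2L3 was lower (−1.11, limma adjusted p 0.00725). VCP (0.45) and NFE2L2 (−0.06), whose protein NRF2 binds the same elements, were not called. Neither was DDI2 of the preceding list, the protease that cuts NFE2L1 free (−0.38). After reversine and after BafA1 none of the 14 was called. FBXW7 (0.69) and NPLOC4 (−0.56) marked the ends after reversine, and NGLY1 (0.28) and NPLOC4 (−0.49) after BafA1.

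Genes that rise under heat shock or other cell stress were examined in the same libraries. Of 10, 9 were higher after MG132, against 7.14% of all rows, and HSPB1 was not called (0.26). DDIT3, which encodes CHOP, had 319, 422 and 421 FPKM in MG132 libraries, against 20.3, 23.9 and 21.4 FPKM in control (4.08, limma adjusted p 2.29e-06). HSPA1A, an inducible HSP70 gene, had 1458, 1107 and 1096 FPKM in MG132 libraries, against 16.3, 20.9 and 31.01 FPKM in control (5.72, limma adjusted p 4.41e-06). Its near-identical copy HSPA1B makes the division of reads between the pair uncertain (4.75). HSPA1B had 2924, 1578 and 1522 FPKM in MG132 libraries, against 75.7, 72.1 and 63.95 FPKM in control. HMOX1, heme oxygenase, had 490.0, 365 and 368 FPKM in MG132 libraries, against 28.6, 35.8 and 37.5 FPKM in control (3.54, limma adjusted p 1.07e-05). SQSTM1, the autophagy receptor p62, had 4551, 3026 and 2938 FPKM in MG132 libraries, against 383, 372 and 373 FPKM in control (3.19, limma adjusted p 2.15e-05). In all 5 the groups stood far apart. DNAJB1 (2.89), HSPH1 (3.33), ATF3 (2.20) and BAG3 (1.35) were the other calls. After reversine 4 of the 10 were higher, against 0.801% of all rows. DDIT3 had 67.3, 70.5 and 78.1 FPKM (1.67, limma adjusted p 0.000569), ATF3 15.2, 12.1 and 10.1 FPKM against 1.95, 2.42 and 2.27 FPKM in control (2.06, 0.00245), HMOX1 73.3, 105 and 98.2 FPKM (1.41, 0.00503) and SQSTM1 670.4, 1047 and 943 FPKM (1.21, 0.0134). The SQSTM1 call after reversine was lost without reversine 2 or 3 or any 1 control (0.0564 to 0.0674), and the alternatives spanned 3.69e-05 to 0.116. The other genes of the 10 were not called after reversine: HSPH1 (0.50), DNAJB1 (0.35), BAG3 (−0.04), HSPA1B (−0.12), HSPA1A (−0.52) and HSPB1 (−0.87). After BafA1 no gene of any of these lists was called. The highest and lowest differences after BafA1 were 0.60 (ATF3) and −1.13 (HMOX1) among these 10, 0.21 (ZFAND5) and −0.47 (ZFAND2A) among the 16 bound proteins, and −0.15 (PSMB10) and −0.44 (PSMB8) in the immunoproteasome. HMOX1 was near the threshold after BafA1 (limma adjusted p 0.0557), with all BafA1 values below all controls. It was called in 7 of 21 alternatives, which spanned 0.000864 to 0.314. After reversine the immunoproteasome had no call either, between −0.14 (PSMB10) and −0.43 (PSMB8).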

How the data were processed

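RNA of 12 libraries of hTERT-RPE1 cells (3 for each of 4 groups) was sequenced by the authors as 50 nt reads of poly(A) RNA with inserts of 150 to 350 nt, per the labels' protocols. The submitters' processing notes name Bowtie 1.0.0, RSEM 1.2.6 and the build hg19 (GRCh37). The deposited gene table names no unit in its header. Its values were taken as FPKM made by the authors. Column totals differ between libraries, which does not settle the unit, so FPKM is an assumption. FPKM are relative to each library's total, and reads of near-identical copies are divided by estimation. No strand setting is stated, so overlapping and antisense genes are uncertain.

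Rows that reached 1 FPKM in 3 or more libraries were tested on log2(FPKM + 1) with the limma trend method (limma 3.58.1, R 4.3.3). A single fit of the 4 groups was used, with p-values adjusted (Benjamini-Hochberg) over all 30712 rows and a threshold of 0.05. Adding 1 makes differences of low genes smaller. The fit was tested on simulated data. GC content and length came from GENCODE v29, for 82.5% of tested rows. Trends with GC content were taken over 16033 genes of at least 500 nt. Samples were grouped by the labelled treatment, and replicate numbers follow the order of the records.

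The 47 genes and the other lists were chosen with earlier results of these data known. Each library's value was given for NFE2L1, PSMB5, PSMB6, PSMB7, POMP, the highest and lowest gene of each class in each comparison with control, and the called genes (beyond 20 calls, the 10 with the smallest adjusted p). From the other lists the called genes were named, the 5 with the smallest adjusted p in full, except that 1 called gene is not reported here. Of lists without a call, the highest and lowest genes are given. Alternatives were another pseudocount (0.1), no filter or one of 5 FPKM, median-ratio scaling, the compared groups alone, a GC and length correction, a batch term for the 4 libraries with a falling GC trend, leaving these out, leaving out each library, and array quality weights. Figures were drawn with matplotlib 3.10.9.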

Additional observations from a re-analysis of the deposited data

How the results depend on the processing

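Over 21 alternatives the count of proteasome genes higher after MG132 than in control ran from 16 (without control 3) to 28 (without reversine 1). Of all 30712 rows, 1153 were called higher without control 3 and 2569 without reversine 1, against 2192 in the main fit. Counts lower after MG132 than in control were 4 under median-ratio scaling and 1 to 4 when single libraries were left out. Rows called lower were 2886 of 30632 with that scaling and 1470 to 3830 of 30712 without single libraries. Counts lower after reversine than in control were 4 with array quality weights, 6 with the batch term, 1 with GC and length correction or no filter on low values, 0 in the 2 groups alone, with median-ratio scaling or leaving out the falling-GC libraries (the 4 with a falling trend), and 0 to 2 when single libraries were left out. Rows called lower after reversine were 396 of 30712 in the main fit, 1447 with array quality weights and 1058 with the batch term. They were 689 of 25349 with the GC and length correction, 335 of 53361 with no filter and 238 of 30632 with median-ratio scaling. The 2 groups alone gave 4 of 30712, and leaving out single libraries gave 147 to 517. Counts lower after BafA1 were 8 with array quality weights and 2 with the batch term, against 513 and 139 of 30712 rows. Counts higher after MG132 than after reversine were 6 in the 2 groups alone and 14 without the libraries with a falling trend. The 6 stood against 102 of 30712 rows. Counts lower after MG132 than after reversine were 0 in the 2 groups alone or with no filter, 2 with the batch term or median-ratio scaling, and 0 to 2 when single libraries were left out. Rows called lower there were 154 of 30712 in the 2 groups alone and 1763 with the batch term. They were 1019 of 53361 with no filter, 1542 of 30632 with median-ratio scaling and 580 to 8851 of 30712 without single libraries. Counts lower after MG132 than after BafA1 were 0 in the 2 groups alone, with no filter or without the falling libraries, 3 with the batch term, and 0 to 3 when single libraries were left out. Rows called lower after MG132 than after BafA1 were 959 of 30712 in the 2 groups alone and 2811 with the batch term. They were 1749 of 53361 with no filter and 1172 to 10050 of 30712 without single libraries. Array quality weights gave 4 genes higher after reversine than after BafA1, against 1150 of 30712 rows. The causes of these changes were not tested.

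Signs turned in genes that were not called. After MG132 these were NFE2L1 (0.32 with the batch term, 0.16 with the GC and length correction, 0.39 without the falling libraries, −0.462 to 0.022 leaving out single libraries), PSMA7 (0.10 with the batch term, 0.08 without the falling libraries), PSMB3 (−0.15 with median-ratio scaling, −0.071 to 0.247 leaving out single libraries), PSMB5 (−0.006 with median-ratio scaling) and PSMD4 (0.10 with array quality weights, 0.50 with the batch term, 0.08 with the GC and length correction, 0.41 without the falling libraries, −0.28 to 0.10 leaving out single libraries). After reversine they were NFE2L1 (0.13 with array quality weights, 0.12 with the batch term, 0.15 without the falling libraries, −0.33 to 0.15 leaving out single libraries), PSMA1 (−0.005 with array quality weights), PSMB5 (0.055 without the falling libraries, −0.428 to 0.055 leaving out single libraries) and PSMC6 (−0.04 with array quality weights, −0.004 with the batch term). After BafA1 they were NFE2L1 (−0.065 with median-ratio scaling, −0.10 to 0.20 leaving out single libraries), POMP (−0.27 to 0.19 leaving out single libraries), PSMA1 (−0.13 with array quality weights, −0.069 with the batch term, −0.045 without the falling libraries, −0.045 to 0.381 leaving out single libraries), PSMC6 (−0.303 to 0.055 leaving out single libraries) and SHFM1 (0.00 with the batch term).

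Rescaling each library to the same total moved the ratio of summed values to control: over MG132 to 1.82 in the beta ring, 1.86 in the base, 2.04 in the lid and 1.75 over all 47 genes, over reversine to 0.854 in the lid and 1.005 in the activators, and over BafA1 to 0.658 in the alpha ring, 0.684 in the beta ring, 0.627 in the base, 0.649 in the lid, 0.635 in assembly factors and 0.664 over all. Leaving out single libraries, the MG132 ratio of the beta ring ran from 1.62 to 1.68 and the reversine ratio of the activators from 1.006 to 1.04. Summing all rows of a symbol moved none of these ratios beyond the spread between replicates.

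No paired analysis was possible because replicate numbers follow the order of the records and pair nothing. Read counts are unknown, so counting error cannot be separated from other spread. With 3 libraries a group, 1 library can decide a call, as listed beside the genes above.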
